A study of Mus musculus with 59 samples.

Results

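The arrays described here are 7 of the 59 in the series, the ones whose titles begin with motorneuron. They were taken by title, and the title was picked with Olig2 known to be highest in this run. In 3 of them embryoid bodies had been given serum of carrier mice (HEMI in the titles), and in 4 the serum of non-carrier littermates (NCAR). The embryoid bodies, aggregates of differentiating cells, came from HGB3 mouse embryonic stem cells, which carry a green fluorescent reporter driven by the promoter of the motor neuron gene Hb9 (Mnx1). Retinoic acid and a hedgehog agonist were used to direct them toward spinal motor neurons, and all 7 arrays follow 24 h with 5% mouse serum. Carrier serum came from male mice hemizygous for a human SOD1 transgene with the G93A mutation, which causes a motor neuron disease like amyotrophic lateral sclerosis (ALS), taken before symptoms. The donors of both groups were crosses of C57BL/6 and SJL. The labels give 9 weeks as the time point, read here as the age of the donor mice. The responding cells carry no SOD1 transgene, come from 1 stem cell line and hold other cell types beside motor neurons. The comparison asks whether such cells respond differently to serum from carriers before disease is visible.

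The other 52 arrays fall into 8 runs by their titles. They had the same cells, serum groups and exposure, with a donor age of 9 weeks in 46 arrays and 10 weeks in the 6 of 1 run. Arrays sharing a title were taken as 1 run, since the labels name no batch. RNA was hybridised to Affymetrix mouse exon arrays, and the deposited intensity of a gene is the mean over its exons, here taken to log2 for 19613 genes. All changes below are carrier minus non-carrier on that log2 scale. They were tested with limma in a fit of all 59 arrays with 1 mean for each serum group of each run, two-sided, and a gene passed where its p, adjusted by Benjamini and Hochberg over the whole table, was under 0.05. Per the paper, serum samples of carriers and controls were picked at random for each batch of cells. Nothing in the labels says that replicates came from separate mice or cultures, so p-values measure a spread between arrays. That spread is pooled over all 9 runs, of which this run had the widest. Fewer cells of a type and less RNA per cell cannot be told apart in such bulk samples.

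Motor neurons arise in the ventral neural tube from progenitors that hold the transcription factor Olig2, and they then switch on Mnx1, Isl1, Lhx3 and the acetylcholine genes. Cells under stress from unfolded proteins or lack of amino acids slow protein synthesis and make the transcription factor ATF4. ATF4 induces CHOP (encoded by Ddit3), ATF3, feedback genes and the enzymes and carriers that supply and charge amino acids. The protein made by Ndufb11 and its relatives belongs to complex I, the entry point of electrons into the respiratory chain of mitochondria.

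Many ATF4 targets carry a composite element near their start to which ATF4 binds together with a C/EBP protein, with the core TGATGNAA, where N is any base. Promoters of 300 bases, 250 before and 50 after the gene start, were found in the RefSeq table (GRCm38.p6) for 17 of the 18 ATF4 and CHOP regulators listed here. The core was searched on both strands and stood in the promoters of 6 of these genes (Atf3, Trib3, Chac1, Nupr1, Vldlr and Herpud1), against 3.97% of all 32851 promoters in the table. The first count is of genes with a match in any of their promoters and the share is of single promoters, so they are unlike measures. A match is a description of the letters and not a binding site. The promoters of Atf3 (chr1:191183284-191183583, minus strand), Chac1 (chr2:119350992-119351291, plus strand) and Herpud1 (chr8:94386179-94386478, plus strand) are shown because the intensities of these genes are followed array by array below, with the match in capitals. In all 3 the capitals are the core read on the opposite strand, and they start at -110, -193 and -112 relative to the gene start.
Atf3: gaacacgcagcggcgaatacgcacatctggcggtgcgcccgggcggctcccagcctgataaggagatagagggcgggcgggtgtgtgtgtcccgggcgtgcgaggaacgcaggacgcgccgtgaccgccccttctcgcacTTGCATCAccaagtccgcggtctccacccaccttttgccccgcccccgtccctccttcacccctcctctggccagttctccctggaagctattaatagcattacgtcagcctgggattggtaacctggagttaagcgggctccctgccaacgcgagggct
Chac1: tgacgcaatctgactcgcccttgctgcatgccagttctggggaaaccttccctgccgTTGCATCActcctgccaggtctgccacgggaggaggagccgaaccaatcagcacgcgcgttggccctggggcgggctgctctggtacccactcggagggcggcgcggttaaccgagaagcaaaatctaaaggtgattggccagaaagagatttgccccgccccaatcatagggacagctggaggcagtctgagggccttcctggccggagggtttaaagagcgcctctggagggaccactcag
Herpud1: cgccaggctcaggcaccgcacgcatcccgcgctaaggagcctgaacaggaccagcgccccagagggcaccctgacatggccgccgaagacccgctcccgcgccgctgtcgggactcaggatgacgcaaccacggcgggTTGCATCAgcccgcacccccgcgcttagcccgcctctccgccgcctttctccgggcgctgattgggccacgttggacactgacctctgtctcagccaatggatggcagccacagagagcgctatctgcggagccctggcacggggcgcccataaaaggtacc

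The label of the arrays was checked against motor neuron genes, and these were present at levels like those of the other runs. Olig2 had a mean log2 intensity of 9.13 over the 7 arrays, the highest of the 9 runs, the other means lying between 8.36 and 9.03, a property that the choice of this run already contained. Its values were 9.35, 9.17, 9.02 and 8.84 in non-carrier arrays 1 to 4 and 9.34, 9.04 and 9.16 in carrier arrays 1 to 3, so the groups overlapped. Mean levels of Mnx1 (8.83), Isl1 (10.44) and Lhx3 (9.14) ranked 6, 8 and 2 among the 9 runs. Slc18a3, the vesicular acetylcholine transporter, was not analysed here.

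**Figure D1:**
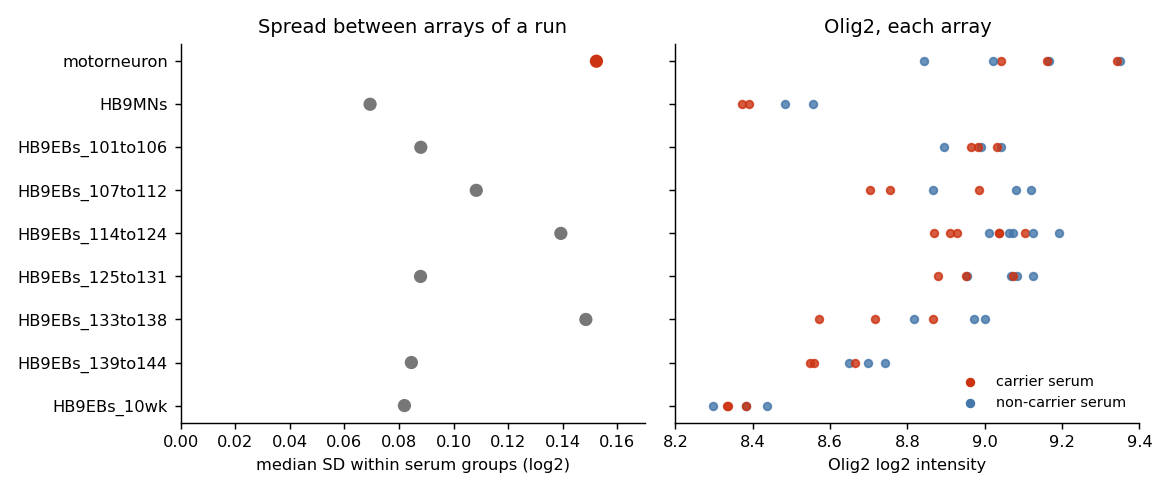
Left, the median over genes of the SD between arrays of the same serum group (log2) in each of the 9 runs; right, the log2 intensity of Olig2 in each array. The motorneuron run has the largest spread, 0.152, and the highest mean of Olig2, 9.13.

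Before the comparison, 2 of the 7 arrays need to be described. The median SD within serum groups was 0.152 in this run and between 0.069 and 0.148 in the other 8, so this run had the widest spread of the 9. Non-carrier array 4 had the lowest median log2 intensity of the 7 (7.36, the others 7.44 to 7.51) and the lowest mean Pearson's r with the other 6 arrays (0.985, the others 0.988 to 0.991). The deviations from the group mean had an SD of 0.193 in non-carrier array 1 and 0.226 in non-carrier array 4, against 0.128 to 0.145 in the other 5 arrays. The median intensity of the 7 arrays lay between 164 and 183, and that of the other 52 between 151 and 168. No 2 of the 7 arrays held identical values. Many results below move when non-carrier array 1 or 4 is left out.

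Of 19613 genes, 2 passed the adjusted p, 0.0102% of those tested, the fall of Spata13 and the rise of Zfp14. At an unadjusted p under 0.05 there were 1061 genes higher with carrier serum (5.41%) and 656 lower (3.34%). In 532 genes (2.71%) every carrier array lay above every non-carrier array, and in 331 genes (1.69%) every one lay below. The median change over all genes was 0.02, and 58.5% of the genes had a positive change. When the 7 arrays were fitted alone, so that their own spread set the error, limma called 0 genes, with 665 at an unadjusted p under 0.05 and a smallest adjusted p of 0.999. The SE was then 0.097 for Spata13 and 0.153 for Zfp14, beside 0.061 and 0.097 in the fit of all 59 arrays. For these genes the pooled error was thus smaller than the run's own. With the other runs in the fit, 59 genes were called without non-carrier array 1, 61 without non-carrier array 4 and 26 without carrier array 3, and 0 without carrier array 1 or 2.

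Spata13 encodes a guanine nucleotide exchange factor that activates small GTPases, which shape the actin cytoskeleton. Its log2 intensities were 8.08, 7.88, 7.78 and 7.79 in non-carrier arrays 1 to 4 and 7.49, 7.53 and 7.52 in carrier arrays 1 to 3. The carrier arrays lay close together and below all non-carrier arrays, and also below every one of the 52 arrays of the other runs, whose lowest value was 7.74. Spata13 fell by 0.36 (SE 0.061, adjusted p from limma 0.00741), from 7.88 ± 0.14 (SD, n = 4) to 7.52 ± 0.02 (SD, n = 3). In the other 8 runs its change was -0.04, between -0.10 and 0.004 run by run, and the difference between this run and the others did not pass (-0.33, adjusted p from limma 0.0890).

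Zfp14 encodes a zinc finger protein of the class that binds DNA and represses transcription. It was named because it was called, and its intensity lies below the median of all genes. Its log2 intensities were 6.75, 6.84, 6.37 and 6.90 in non-carrier arrays 1 to 4 and 7.31, 7.47 and 7.01 in carrier arrays 1 to 3. All carrier arrays lay above all non-carrier arrays. Zfp14 rose by 0.55 (SE 0.097, adjusted p from limma 0.0115), from 6.72 ± 0.24 (SD, n = 4) to 7.26 ± 0.23 (SD, n = 3). Its change in the other 8 runs was -0.01, with 4 runs lower and 4 higher and a range of -0.26 to 0.20. Arrays of those runs lay between 6.54 and 7.52, so the carrier arrays stayed within that range and 1 non-carrier array lay below it. Zfp14 was the single gene, 0.00510% of those tested, whose difference from the other 8 runs passed (0.56, adjusted p from limma 0.0489). For both genes the two-sided exact permutation test within the 7 arrays gave p = 0.0571, the smallest that 3 against 4 arrays allow. Every gene with groups apart has this value, 2.71% of all genes on the higher side and 1.69% on the lower. Since both genes were picked by their p, it is no separate support for them. Neither gene passed when carrier array 1 or carrier array 2 was left out (adjusted p from limma between 0.0701 and 0.243), and Zfp14 did not pass without non-carrier array 3 (0.182). The difference of Zfp14 from the other runs also did not pass without any one of these 3 arrays (adjusted p from limma between 0.240 and 0.295).

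**Figure D2:**
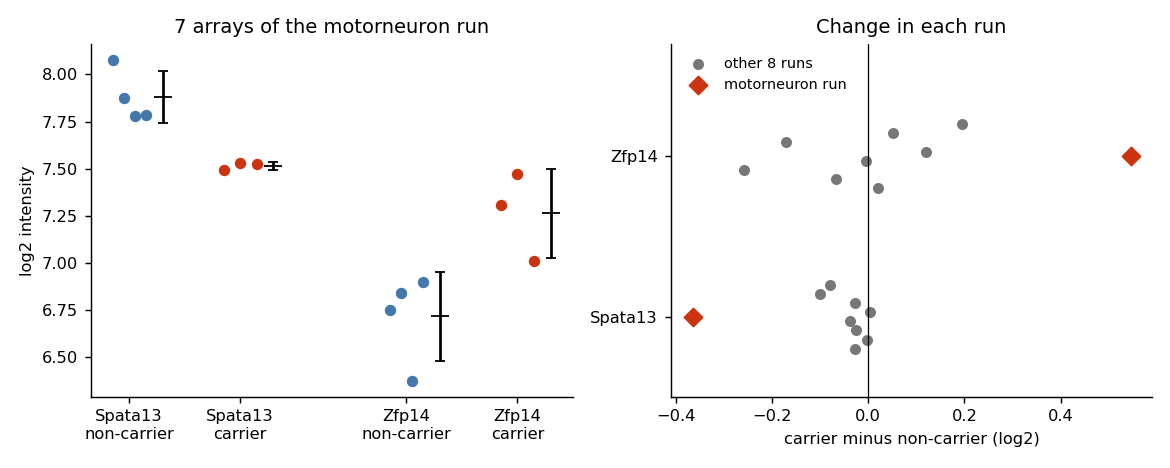
Left, log2 intensity of Spata13 and Zfp14 in each array of the motorneuron run (blue, 4 non-carrier arrays; red, 3 carrier arrays), with the mean and SD of each group as black bars. Right, the change in each of the 9 runs, the motorneuron run as a red diamond (-0.36 and 0.55) and the other 8 runs as grey points.

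Genes of at least median intensity whose groups did not overlap were ranked by p, and the next 12 on the higher side and 11 on the lower side are named although none of them passed. On the higher side the lowest p belonged to Rgs20, a brake on G protein signalling, with 8.60, 8.71, 8.22 and 8.11 in non-carrier arrays 1 to 4 and 8.98, 8.89 and 8.73 in carrier arrays 1 to 3 (change 0.46, adjusted p from limma 0.207). All 3 carrier arrays lay above the highest non-carrier array, the lowest of them only just. St8sia4 makes polysialic acid, a sugar coat of the neural adhesion molecule NCAM. It had 7.87, 7.39, 7.55 and 7.76 without and 8.10, 7.92 and 8.03 with carrier serum (change 0.37, adjusted p 0.265). The membrane protein gene Tmem176b had a change of 0.35.

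The remaining 9 on that side had changes between 0.20 and 0.34. Tfb1m methylates the small ribosomal RNA of mitochondria (0.28), and Fam36a, now named Cox20, assembles cytochrome c oxidase (0.29). Urm1 is needed to add sulphur to certain tRNAs (0.27), 6530401N04Rik, now Dtd2, removes D-amino acids from tRNAs (0.20), and Dom3z, now Dxo, removes faulty caps from RNA (0.34). Cenpm belongs to the centromere (0.29), Ppm1f is a phosphatase acting on CaM kinases (0.22), and Ift20 carries cargo into cilia (0.23). For the uncharacterised gene 1110032A03Rik the change was 0.26. The adjusted p of the 12 genes lay between 0.207 and 0.299. Without non-carrier array 1, Rgs20, Tmem176b, St8sia4 and Dom3z passed (adjusted p from limma between 0.0223 and 0.0447), and without non-carrier array 4 none of the 12 did.

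On the lower side the next genes after Spata13 were 2310047M10Rik, now Borcs6, and Pag1. Borcs6 belongs to a complex that moves lysosomes along microtubules, and had 7.68, 7.85, 7.67 and 7.66 in non-carrier arrays 1 to 4 against 7.22, 7.33 and 7.23 in carrier arrays 1 to 3. Every carrier array lay well below every non-carrier array (change -0.45, adjusted p from limma 0.123). Pag1, a membrane adaptor that restrains Src kinases, had 8.71, 8.60, 8.61 and 8.58 against 8.30, 8.37 and 8.35 (change -0.28, adjusted p 0.133). These groups were also clearly apart.

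Sybu links vesicles to kinesin for transport along axons (-0.36), and Kif3c is a kinesin (-0.14). Sybu had 9.02, 8.87, 9.17 and 8.95 in non-carrier arrays 1 to 4 and 8.43, 8.66 and 8.83 in carrier arrays 1 to 3, with the highest carrier array just below the lowest non-carrier array. Kif3c had 9.57, 9.50, 9.54 and 9.55 against 9.38, 9.33 and 9.48. Other genes on this side were the histone acetyltransferase Myst2, now Kat7 (-0.20), the lipid enzymes Dgkh (-0.20) and Fads1 (-0.19), and Clpb, which frees aggregated proteins in mitochondria (-0.21). Fam118a (-0.32), BC032203 (-0.28) and Klhl26 (-0.22) complete the 11, whose adjusted p lay between 0.123 and 0.265. Without non-carrier array 1, 2310047M10Rik, Fam118a, Myst2 and Dgkh passed (adjusted p from limma between 0.0167 and 0.0491). Without non-carrier array 4, 2310047M10Rik, Pag1, Myst2, BC032203 and Fads1 passed (between 0.0217 and 0.0304).

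No ATF4 or CHOP regulator passed in this run, and 1 control array lay far from the rest in several of them. Ddit3 had log2 intensities of 7.35, 8.42, 8.45 and 8.35 in non-carrier arrays 1 to 4 and 7.89, 8.10 and 8.05 in carrier arrays 1 to 3. Non-carrier array 1 was thus below all carrier arrays, and the other 3 non-carrier arrays above all of them. Atf4 had 9.80, 10.51, 10.50 and 10.47 against 10.13, 10.40 and 10.34, with the same order of arrays.

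Atf3, a partner factor, had 6.91, 7.70, 7.94 and 7.68 in non-carrier arrays 1 to 4 and 7.38, 7.33 and 7.52 in carrier arrays 1 to 3. Herpud1, which helps clear misfolded proteins from the endoplasmic reticulum, had 8.71, 9.26, 9.30 and 9.25 against 9.00, 9.14 and 9.13. For both, again, the carrier arrays fell between non-carrier array 1 and the other 3. Asns, asparagine synthetase, had 10.54, 11.04, 10.95 and 10.95 against 10.86, 10.88 and 10.85. Chac1, which degrades glutathione, had 9.13, 9.45, 9.42 and 8.96 against 9.18, 9.30 and 9.16, and here non-carrier array 4 was the lowest. Non-carrier array 1 was the lowest of the 7 arrays in 11 of the 18 regulators.

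The changes with all 7 arrays were -0.13 for Ddit3 (SE 0.190), -0.03 for Atf4 (SE 0.116), -0.15 for Atf3, -0.04 for Herpud1, -0.01 for Asns, -0.03 for Chac1 and -0.10 for Trib3, a feedback inhibitor. Their adjusted p from limma lay between 0.885 and 0.995. Of the 18 measured regulators 0 passed, 6 were higher and 12 lower, and their median was -0.03 beside 0.02 for all genes. In the other 8 runs the median of the same genes was -0.32 with 16 called lower, where 1.91% of all genes were. Among the 16 were Ddit3 (-0.36), Atf4 (-0.30), Atf3 (-0.48) and Chac1 (-0.52). Run by run, Ddit3 lay between -0.89 and 0.30, Atf4 between -0.65 and 0.07 and Atf3 between -1.45 and 0.32. Each was lower in 7 of the 8 runs and higher in 1. Chac1 lay between -1.73 and 0.15, lower in 6 runs and higher in 2. For each of these genes the change in the motorneuron run lay within that range. The difference between this run and the others passed for 0 of the 18, its adjusted p being 0.860 for Ddit3, 0.610 for Atf4 and 0.802 for Atf3. At an unadjusted p under 0.05 the difference was higher for 7 of the 18 (4.41% of all genes) and lower for 0, and its median over the list was 0.30.

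Non-carrier array 1 was the lowest in 11 of the 18 regulators, so leaving it out must lower the changes of those genes. The values without it therefore cannot test a likeness to the other runs. Ddit3 then had a change of -0.39 (adjusted p from limma 0.325), Atf4 of -0.21 (0.376) and Atf3 of -0.36 (0.476). The median of the list became -0.12, with 14 of 18 lower, 2 of these at an unadjusted p under 0.05 (5.01% of all genes in that fit) and none past the adjusted p. Without non-carrier arrays 1 and 4 together, left out after the data were seen, it was -0.17 with 15 of 18 lower. With only non-carrier array 4 left out, the median was -0.02 with 8 of 18 higher.

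The list member with the largest change went the other way. Cebpb, a C/EBP factor that pairs with ATF4 and CHOP, had 7.28, 7.30, 6.78 and 6.85 in non-carrier arrays 1 to 4 and 7.59, 7.48 and 7.28 in carrier arrays 1 to 3 (change 0.40, unadjusted p 0.00462, adjusted p from limma 0.356). The lowest carrier array lay just below the highest non-carrier array. Stc2, a secreted stress glycoprotein, had a change of 0.22 here and -0.35 in the other runs (adjusted p of the difference 0.503).

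**Figure D3:**
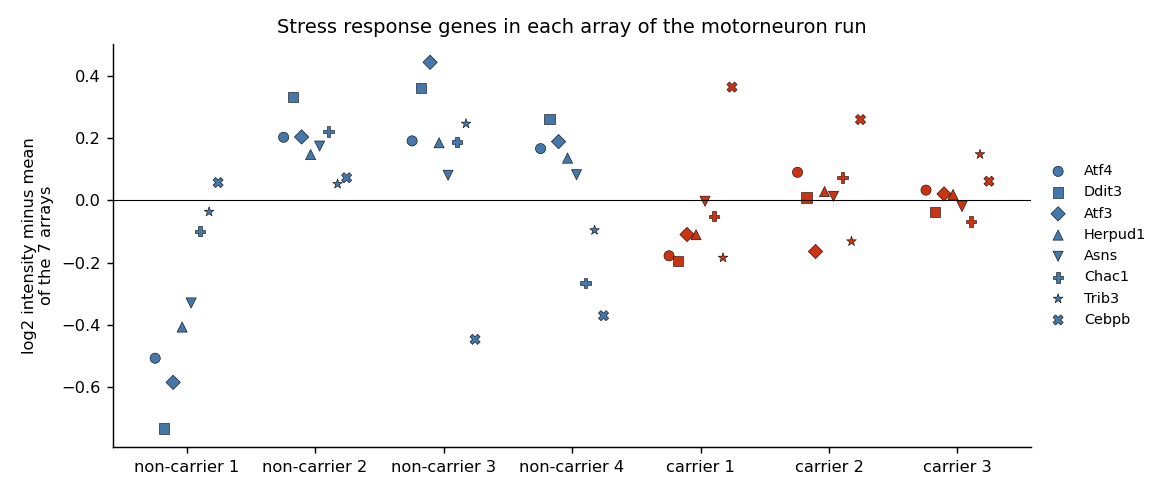
Log2 intensity of 8 stress response genes in each of the 7 arrays, minus the gene's mean over the 7 (blue, non-carrier; red, carrier; the symbol gives the gene). Ddit3, Atf4, Atf3, Herpud1 and Asns are lowest in non-carrier array 1 and lie higher in the other 3 non-carrier arrays than in all carrier arrays.

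Genes that charge, import and make amino acids act downstream of ATF4, and none passed in this run. Of 22 cytosolic aminoacyl-tRNA synthetase genes 11 were higher and 11 lower (median -0.01, other runs -0.14 with 12 called lower, beside 1.91% of all genes), and non-carrier array 1 was the lowest of the 7 arrays in 19 of them. Without that array 16 of the 22 were lower and the median was -0.11. Yars, the tyrosyl-tRNA synthetase, had 9.79, 9.84, 9.81 and 9.81 in non-carrier arrays 1 to 4 and 9.60, 9.60 and 9.73 in carrier arrays 1 to 3. Its groups did not overlap (-0.17, adjusted p from limma 0.553), and its change was -0.23 in the other runs. Cars (-0.18) also lay low, whereas Dars (0.14) and the accessory factor Eef1e1 (0.16) lay high. The 16 mitochondrial synthetases had a median of 0.02 (10 higher).

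Of 14 amino acid transporters 12 were lower (median -0.07, other runs -0.19 with 9 called lower), and of 17 genes of amino acid and one-carbon synthesis 12 were lower (median -0.04, other runs -0.25 with 13 called lower, both counts beside 1.91% of all genes). None passed here, and without non-carrier array 4 the median of the synthesis genes was -0.007. Slc7a1, which imports arginine and lysine, had a change of -0.19 and Slc3a2, the shared heavy chain of several carriers, of -0.15, beside -0.41 and -0.23 in the other runs. Gpt2, an alanine aminotransferase, had 9.08, 8.96, 8.85 and 8.90 in non-carrier arrays 1 to 4 and 8.77, 8.68 and 8.78 in carrier arrays 1 to 3. It was apart on the lower side (-0.20, adjusted p from limma 0.542), as was Aldh18a1 of proline synthesis (-0.15). Mthfd2 of the mitochondrial folate cycle had -0.14 and Shmt2 -0.14, beside -0.45 and -0.28 in the other runs.

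Subunits of respiratory complex I lay on the higher side. Of 37 measured, 30 had a positive change, 10 were higher at an unadjusted p under 0.05, 6 were apart on the higher side and 0 passed the adjusted p. Their median was 0.13, beside 0.02 for all genes and -0.05 for the same subunits in the other runs. Shares of this kind over all genes are 58.5% positive, 5.41% higher at an unadjusted p under 0.05 and 2.71% apart.

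Ndufv3, an accessory subunit of the part that takes up NADH, had 10.15, 10.20, 10.13 and 10.10 in non-carrier arrays 1 to 4 and 10.33, 10.51 and 10.35 in carrier arrays 1 to 3. Every carrier array lay above the highest non-carrier array (change 0.25, adjusted p from limma 0.299). Ndufb11 had 10.34, 10.80, 10.79 and 10.70 against 10.93, 10.96 and 10.85 (change 0.26, adjusted p 0.316), and without non-carrier array 1 its change was 0.15. Ndufa11 had 9.81, 9.97, 10.07 and 10.00 against 10.22, 10.37 and 10.17 (change 0.29, adjusted p 0.515). Ndufa12, Ndufb3 and Ndufv2 were also apart. Ndufb2 had the largest change, 0.40, with a standard error of 0.263 and overlapping groups.

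Non-carrier array 1 was the lowest of the 7 arrays in 27 of the 37 subunits. Without it 23 subunits were higher, 3 of them at an unadjusted p under 0.05, a share near the 7.92% of all genes in that fit, and the median was 0.06 beside 0.03. Without non-carrier array 4, 31 subunits were higher, 15 of them at an unadjusted p under 0.05, beside 1344 of all 19613 genes. The median was then 0.20 beside 0.006. Without both arrays, left out after the data were seen, 28 were higher and the median was 0.08 beside 0.01. The difference from the other runs passed for 0 of the 37 and was higher at an unadjusted p under 0.05 in 10, beside 4.41% of all genes. The cytosolic ribosomal proteins were higher in 38 of 42 (median 0.06, other runs -0.06) and lowest in non-carrier array 1 in 38 of 42. Without that array their median was -0.02, with 26 of 42 lower. Rpl11 had 9.75, 10.35, 10.66 and 10.91 in non-carrier arrays 1 to 4 and 10.42, 10.85 and 10.60 in carrier arrays 1 to 3. Its change was 0.21 with and -0.02 without non-carrier array 1, and that of Rps23 0.27 and 0.11.

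No motor neuron gene passed with all 7 arrays. Of 16 measured, 8 were higher and 8 lower (median 0.005). Isl1 had 10.38, 10.29, 10.29 and 10.54 in non-carrier arrays 1 to 4 and 10.55, 10.56 and 10.49 in carrier arrays 1 to 3. Non-carrier array 4 lay among the carrier arrays and the other 3 below all of them (change 0.16, adjusted p from limma 0.334). Without non-carrier array 4 Isl1 passed, at 0.22 (adjusted p 0.0426). Mnx1 had a change of 0.14, Lhx3 of 0.07, Olig2 of 0.09, Isl2 of 0.10, Chat of -0.05 and the progenitor factor Nkx6-1 of -0.09, all with an adjusted p of at least 0.743. Slc5a7, which takes choline up into motor nerve endings, had 0.25 (0.53 with adjusted p 0.0490 without non-carrier arrays 1 and 4), whereas Lhx4, which specifies motor neurons with Lhx3, was apart on the lower side (-0.14). Endogenous Sod1, the mouse counterpart of the transgene that the carrier donors hold, had 11.74, 12.03, 11.92 and 12.03 against 12.05, 11.97 and 12.03 (change 0.09, adjusted p 0.770).

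In the other neural lists the medians moved when non-carrier array 1 or 4 was left out. With all 7 arrays they lay near that of all genes, except for the interneuron genes. The 18 ventral progenitor genes had a median of 0.01 (10 higher), the 18 pan-neuronal genes of -0.01 (7 higher), the 16 glutamate receptor genes of 0.01 (11 higher), the 10 genes of astrocytes and radial glia of -0.0007 (5 higher) and the 8 of the oligodendrocyte lineage of -0.02 (3 higher). Leaving out non-carrier array 1 gave medians of 0.04 for progenitors, 0.01 for pan-neuronal genes, 0.08 for glutamate receptors, 0.10 for astrocytes and radial glia and 0.01 for oligodendrocytes. Without non-carrier array 4 they were -0.05, -0.03, -0.02, -0.05 and -0.08. Fabp7, a fatty acid binding protein of neural stem cells, had the largest change of the progenitor list, with 12.91, 12.71, 12.52 and 12.74 in non-carrier arrays 1 to 4 and 13.03, 12.88 and 12.88 in carrier arrays 1 to 3 (0.21, adjusted p from limma 0.369). The 18 interneuron genes had a median of 0.09, with 13 higher, and 13 of them were lowest in non-carrier array 4. Without that array the median was -0.01. En1 of ventral interneurons had 8.37, 8.18, 8.17 and 7.57 against 8.39, 8.44 and 8.30 (change 0.30, and 0.13 without non-carrier array 4).

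Patterning genes were likewise uneven over the control arrays. Of 13 hedgehog targets 11 were lower (median -0.09, and -0.01 without non-carrier array 1). The 23 Hox genes had a median of -0.05 with 9 higher and 14 lower. Hoxb8 had 10.46, 10.39, 9.48 and 9.15 in non-carrier arrays 1 to 4 and 10.66, 10.35 and 10.12 in carrier arrays 1 to 3, a change of 0.50 (adjusted p from limma 0.360). Non-carrier arrays 3 and 4 lay below the rest. Without non-carrier array 1 Hoxb8 passed, at 0.70 (adjusted p 0.0447), and without non-carrier array 4 its change was 0.26. The 10 retinoic acid genes had a median of -0.01 with 5 higher. Among them Crabp2, which brings retinoic acid to its receptors, had 9.42, 10.42, 10.03 and 10.99 against 10.80, 10.82 and 10.28. Its change was 0.42, and 0.68 without non-carrier array 4, where it passed (adjusted p 0.0408), but 0.15 without non-carrier array 1.

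Markers of cell types other than neural ones lay higher with carrier serum in most members, where 58.5% of all genes had a positive change. These markers are dim, with mean log2 levels over the 7 arrays between 6.03 (endothelium) and 7.25 (muscle), beside 7.46 for all genes. The median change of all genes was 0.02, and -0.001 with dim genes left out. A part of low intensity in the marker counts was not tested. Mesenchyme markers were higher in 11 of 13 (median 0.14), endoderm in 9 of 12 (0.11), endothelium in 7 of 9 (0.08), blood cells in 10 of 13 (0.07), pluripotent cells in 11 of 15 (0.07) and muscle in 7 of 9 (0.04). None passed. Summed over the list, the log2 intensities of the mesenchyme markers ran from 88.6 to 90.9 in carrier and from 85.5 to 89.1 in non-carrier arrays, and those of the blood markers from 85.7 to 88.3 and from 81.7 to 86.8. No marker is at 0 on these arrays, which always give a positive intensity. In 10 of 13 mesenchyme, 9 of 13 blood and 7 of 12 endoderm markers non-carrier array 4 was the lowest of the 7. Without it the medians were 0.07, 0.02 and 0.04, endothelium was at 0.06, pluripotent cells were at 0.01 (8 of 15 higher) and muscle at -0.04. With quantile normalization the medians of pluripotent cells (-0.009) and muscle (-0.02) turned sign, and that of blood cells was 0.01. Mesenchyme (0.13), endoderm (0.10) and endothelium (0.05) stayed positive there, beside -0.006 for all genes. In the other 8 runs the medians of these marker lists were positive too, from 0.04 (pluripotent cells) to 0.06 (muscle), beside 0.01 for all genes. Without non-carrier array 1 Actc1, the actin of heart muscle, passed on the lower side (-0.42, adjusted p from limma 0.0447, and -0.18 with all arrays). Their part in the other results was not tested.

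Col1a2, a chain of fibrillar collagen, had 7.70, 7.57, 7.47 and 7.25 in non-carrier arrays 1 to 4 and 7.89, 7.77 and 7.56 in carrier arrays 1 to 3 (change 0.24, adjusted p from limma 0.454). Hbb-b1, a globin of red cells, had 6.66, 6.56, 6.38 and 6.00 against 7.01, 6.75 and 6.74 (change 0.43, adjusted p 0.493). Dppa5a of pluripotent cells had 6.39, 5.79, 6.07 and 6.29 against 6.84, 6.40 and 6.83 (change 0.55, adjusted p 0.458). Col1a2 and Hbb-b1 were lowest in non-carrier array 4 and Dppa5a in non-carrier array 2. Hbb-b1, Dppa5a and the matrix gene Lum (0.37) were apart on the higher side. Klf4, also a pluripotency factor, had a change of 0.33 with all arrays and 0.10 without non-carrier array 4.

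None of the lists of other stress and metabolic pathways had a member past the adjusted p. Chaperones of the endoplasmic reticulum had a median of 0.03 (11 of 18 higher), with Pdia4 at 0.18 and Hyou1 at -0.12, and cytosolic heat shock proteins of -0.03 (4 of 13 higher). Sterol synthesis genes had a median of -0.03 (9 of 23 higher) beside 0.08 in the other runs, and LXR targets of -0.03 (4 of 11 higher). Scd1, a fatty acid desaturase, had 10.45, 10.48, 10.58 and 10.42 in non-carrier arrays 1 to 4 and 10.24, 10.31 and 10.36 in carrier arrays 1 to 3. It was apart on the lower side (-0.18, adjusted p from limma 0.557), beside 0.14 in the other runs, where it was called higher, and the difference did not pass (adjusted p 0.344). Fatty acid oxidation had a median of 0.02 (11 of 18 higher) and NRF2 targets of 0.03 (8 of 13 higher), with the glutathione transferase Gsta4 at 0.34 (adjusted p 0.326, and 0.51 with adjusted p 0.0490 without non-carrier arrays 1 and 4). Leaving out non-carrier array 1 gave medians of -0.03 for fatty acid oxidation, -0.04 for sterol synthesis, 0.02 for LXR targets and -0.06 for heat shock proteins. Without non-carrier array 4 these were 0.07, 0.01, -0.05 and 0.01.

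Hypoxia genes had a median of -0.05 (5 of 14 higher) beside -0.14 in the other runs, and p53 targets of -0.04 (6 of 15 higher). Ei24, a p53 target of the endoplasmic reticulum, had 10.28, 10.35, 10.33 and 10.60 in non-carrier arrays 1 to 4 and 10.68, 10.64 and 10.55 in carrier arrays 1 to 3, a change of 0.24 (unadjusted p 3.26e-04, adjusted p from limma 0.265). It passed without non-carrier array 4 (0.30, adjusted p 0.0153). The median of the p53 targets was -0.10 without non-carrier array 1 and 0.03 without non-carrier array 4. Replication genes had a median of 0.01 (11 of 19 higher) and mitotic genes of 0.04 (11 of 18 higher), at -0.03 and 0.002 without non-carrier array 1 and at 0.05 and 0.09 without non-carrier array 4. Immediate-early genes, which serum and growth factors induce within minutes to hours, had a median of 0.09 (12 of 18 higher) that was 0.002 without non-carrier array 4, with Egr3 at 0.37. Interferon-stimulated genes stood at 0.01 (10 of 17 higher), inherited ALS genes at -0.04 (8 of 23 higher) and protein arginine methyltransferases at -0.06 (1 of 9 higher).

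**Figure D4:**
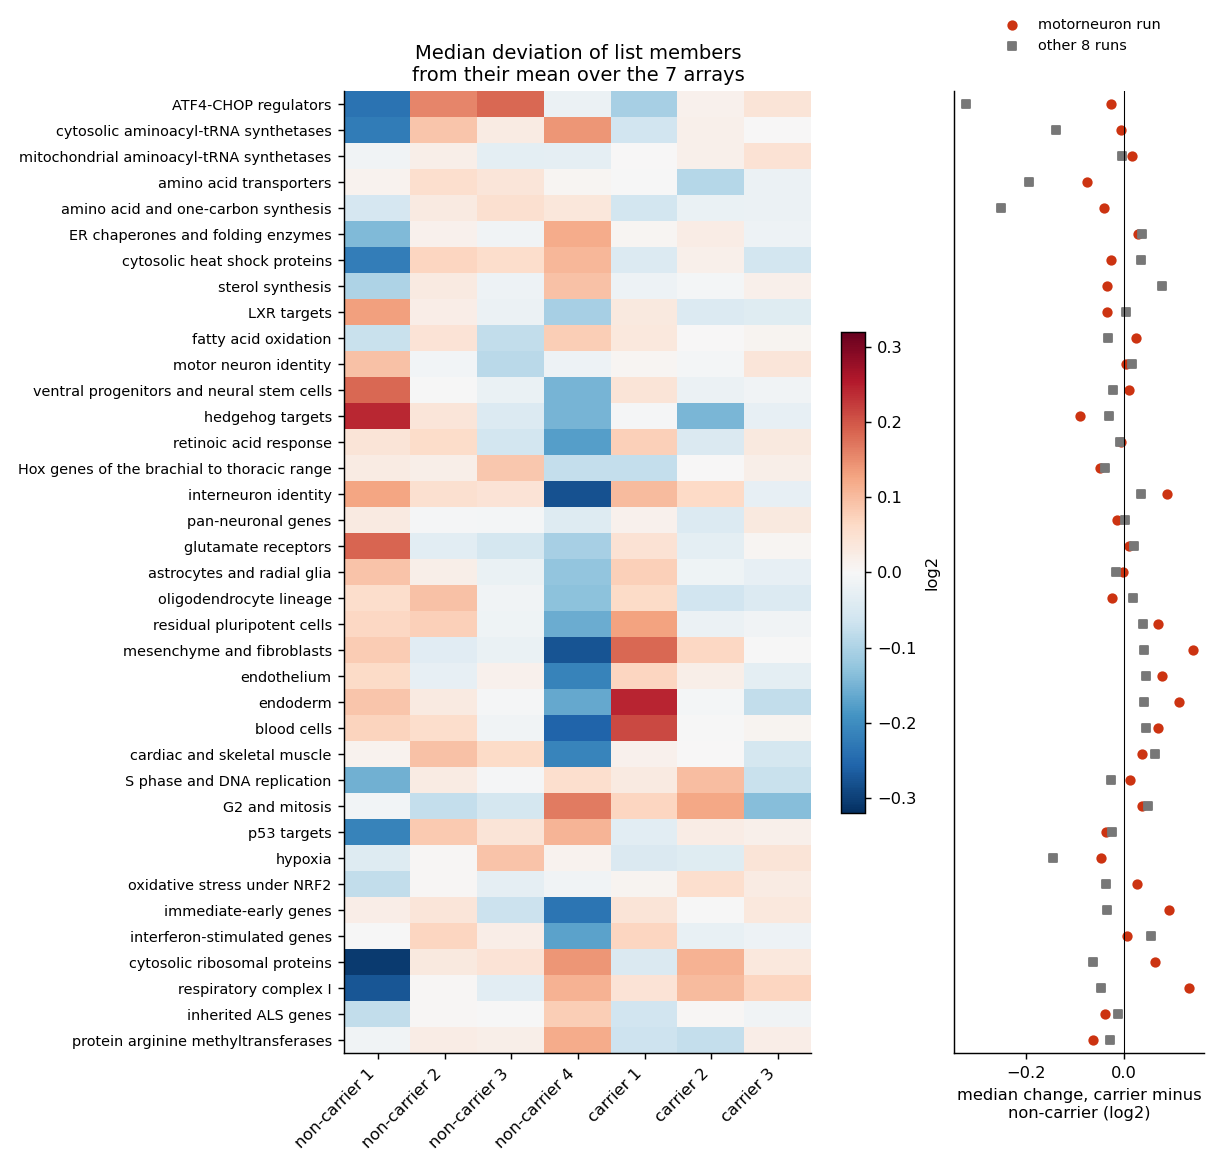
Left, for 37 gene lists, the median over members of the log2 intensity minus the member's mean over the 7 arrays, by array. Right, the median change of each list in the motorneuron run (red points) and in the other 8 runs (grey squares). Ribosomal proteins, complex I and ATF4-CHOP regulators are lowest in non-carrier array 1, mesenchyme and interneuron genes in non-carrier array 4.

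The other 8 runs share no array with this one, so genes called there can be followed here. In them limma called 153 genes higher (0.780% of those tested) and 375 lower (1.91%). Of the 153, 95 had a positive change in the motorneuron run, with a median of 0.03 beside 0.11 in the runs that called them. Of the 375, 238 had a negative change, with a median of -0.03 beside -0.12. Over all genes 58.5% of changes were positive in this run. Of the 528 genes together, 47 had the same sign and an unadjusted p under 0.05 here, and 11 the opposite sign, beside 5.74% and 3.01% of all genes. Without non-carrier array 1, 277 of the 375 were lower, with a median of -0.06, and without non-carrier array 4, 225.

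None of the 528 genes passed the test of the difference between this run and the others, and 29 of the 153 and 88 of the 375 had an unadjusted p under 0.05 in it, beside 7.46% of all genes. These genes were selected for their change in the other runs, which enters the difference. Across all genes the changes in this run and in the others had a Pearson's r of 0.16 and a Spearman's rank correlation of 0.20, a description only, since genes are not independent replicates. Beside Zfp14, the lowest p for a difference among genes of at least median intensity and with groups apart were on the higher side those of Tmem176b, 1110032A03Rik, Urm1, Tfb1m, Rgs20 and Tomt, and on the lower side those of Spata13, Fat4, Sybu, Pag1, Kif3c and Fam118a. None of these 12 passed (adjusted p from limma between 0.0890 and 0.246). Fat4, an atypical cadherin, had 8.97, 8.97, 8.97 and 8.86 in non-carrier arrays 1 to 4 and 8.65, 8.79 and 8.81 in carrier arrays 1 to 3, a change of -0.19 beside 0.06 in the other runs. For Tomt, an O-methyltransferase, the changes were 0.23 here and -0.12 in the other runs, where it was called lower.

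**Figure D5:**
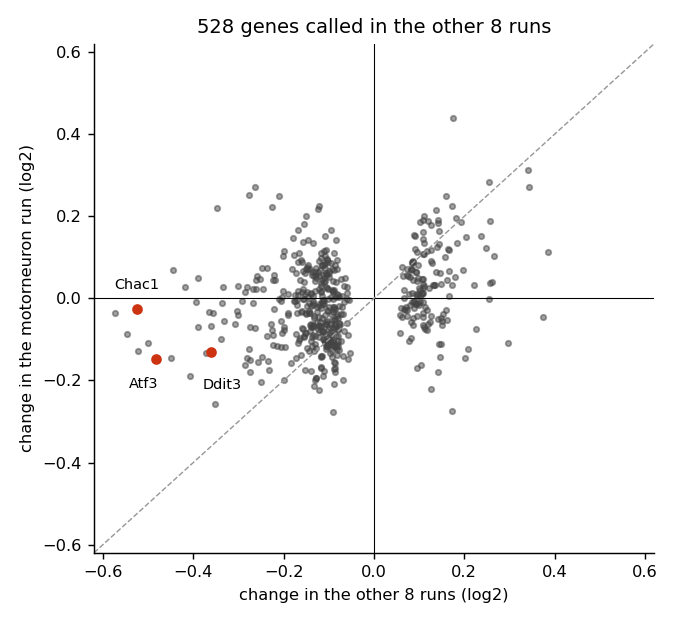
Change in the motorneuron run against the change in the other 8 runs, both log2, for the 528 genes called in the other runs; the dashed line marks equal changes. The medians were 0.03 and -0.03 here beside 0.11 and -0.12 in the other runs, and Atf3, Ddit3 and Chac1 (red) lie at -0.15, -0.13 and -0.03 beside -0.48, -0.36 and -0.52.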

How the data were processed

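Embryoid bodies were profiled on Affymetrix mouse exon arrays. Per the paper's methods, the authors removed outlier arrays, normalized the arrays together by robust multi-array averaging (RMA) and averaged the exons of a gene; the values they deposited are linear intensities. The genome build of the annotation is not given in the sources used here. The intensities of 19613 genes were taken to log2 with no pseudocount and fitted with limma 3.58.1 in R 4.3.3 with 1 mean per serum group and run (59 arrays, 18 groups, 41 residual degrees of freedom), two-sided, Benjamini-Hochberg adjusted. The number of arrays limits the precision.

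Named genes were the 12 per direction with the lowest p (6 for the difference between runs) with groups apart and at least median intensity, up to 4 members of each of 37 lists with the largest changes, genes of the study's batch correction, Sod1 and 7 stress genes; Zfp14 was added after its values were seen, as were genes named as apart. The arrays and lists were chosen with earlier results of these data known. Samples were not paired by replicate number, since the labels do not say that the numbers pair them. Deviations of arrays with the same number had correlations of 0.33, -0.09 and 0.02. Arrays of different numbers were not compared in this way, so these values cannot decide it. Alternatives were the 7 arrays alone, a replicate block, a trended or robust variance, array weights, median centring, quantile normalization, a filter on dim genes, a pseudocount of 16, 4 marker genes as covariates and each array left out.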

Additional observations from a re-analysis of the deposited data

Results flagged for a closer look

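In 7 of the 78 named genes examined, 1 of the 4 non-carrier arrays stood far from the other 3. The cut used is a nominal one that chance passes in about 1 in 20 genes. The share over all genes was not taken, and many of the 78 were picked by their values in these arrays. The count is therefore a description and is not shown to exceed that of other genes. Non-carrier array 1 was the low one for Atf4 (9.80), Ddit3 (7.35), Herpud1 (8.71) and Tomt (8.34), 4 genes in all. Non-carrier array 4 stood apart for Fads1 (10.80) and Fat4 (8.86), and non-carrier array 2 for 2310047M10Rik (7.85). The change of Zfp14 differed between the motorneuron run and the other 8 runs (0.56 in log2 units, limma adjusted p 0.0489). This difference did not pass with a robust variance (limma adjusted p 0.0501), with centring (0.151) or with covariates (0.0617). It also did not pass without carrier array 1, carrier array 2 or non-carrier array 3. All 3 carrier arrays of the motorneuron run lay above its 4 non-carrier arrays, as in 2.71% of all genes, which is no separate support.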

How the results depend on the processing

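The number of genes called in the motorneuron run, 2 with 1 higher and 1 lower, was 0 with the 7 arrays alone (665 at an unadjusted p under 0.05) and 0 with the replicate block (1452), 4 with array weights, 5 with arrays centred on their medians (1 higher, 4 lower), 56 with quantile normalization (12 higher, 44 lower), 1 with dim genes left out and 22 with the 4 marker genes as covariates (12 higher, 10 lower). It was 0 to 61 with 1 array left out, and 52 without non-carrier arrays 1 and 4, left out together after the data were seen. It stayed at 2 with an intensity trend, a robust variance and a pseudocount of 16. The causes were not tested. Centring moved the median change of all genes from 0.02 to -0.02. The number of genes with a called difference from the other runs, 1, was 0 with a robust variance, with centring and with dim genes left out, 3 with array weights, 67 with quantile normalization, 18 with covariates, 0 to 33 with 1 array left out and 3 without both arrays. The 528 calls of the other 8 runs became 3145 with array weights and 4409 with covariates. List members called, 0, were 0 to 3 with 1 array left out and 5 without both arrays. Spata13 did not pass with the 7 arrays alone (-0.36, adjusted p from limma 0.999) or the replicate block (-0.40, 0.673), and lay between -0.40 and -0.30 with 1 array left out. Zfp14 did not pass with the 7 arrays alone (0.55, 0.999), the replicate block (0.61, 0.577) or covariates (0.42, 0.0542), and lay between 0.43 and 0.67 with 1 array left out; the filter on dim genes removed it. Its difference from the other runs did not pass with a robust variance (0.56, adjusted p 0.0501), centring (0.52, 0.151) or covariates (0.45, 0.0617), and lay between 0.45 and 0.69 with 1 array left out. With covariates the sign turned for Isl2 (-0.0522), Ddit3 (0.0862), Atf3 (0.0460), Asns (0.125), Trib3 (0.0394) and Chac1 (0.0937), and with the replicate block for Atf4 (0.0195), Herpud1 (0.00383) and Asns (0.0217). Non-carrier array 4 is the only array with its replicate number, so the block takes it out of the comparison. The block's changes are therefore those without non-carrier array 4, and its turned signs are no separate result. With 1 array left out the sign turned for Atf4 (-0.205 to 0.0484), Herpud1 (-0.177 to 0.0203), Asns (-0.116 to 0.0524), Chac1 (-0.119 to 0.0439) and Rpl11 (-0.0157 to 0.372). None of these passed in either direction. The labels do not say whether replicate numbers pair the arrays, and the block is given for completeness.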
